A study of Mus musculus with 12 samples.

Results

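The genes described here are 45 genes of mitosis and cytokinesis, of 41128 genes in the deposited count table of this mouse liver study. They were taken by symbol from a list of genes that act between entry into mitosis and the separation of daughter cells. All 45 were found, and all 45 passed the filter on low counts, so each count from the main fits is out of 45. The filter was applied once over the 6 hepatocyte libraries and once over the 6 liver libraries. A gene low in both groups of a liver comparison could thus pass through its counts in the third group. They fall into 11 roles, from transcription factors and mitotic cyclins to kinetochore proteins, motors, the machinery of the cleavage furrow and condensin.

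Polyadenylated RNA of 12 libraries in 5 groups was sequenced. Hepatocytes purified on a Percoll gradient made up 3 untreated samples and 3 samples labelled peritumoral, from around liver tumours. All 6 are titled WT and carry the genotype label Lats1tm1.1Jfm/RjoJ; Lats2tm1.1Jfm/RjoJ, which names floxed Lats1 and Lats2 alleles. The sources used here do not say whether a Cre was present. Tumours were started by hydrodynamic injection of 1 µg of SB11, a Sleeping Beauty transposase, with 20 µg of myc-NICD, the intracellular domain of Notch, and 4 µg of myr-ha-Akt, a membrane-bound form of the kinase Akt, in mice aged 8 weeks, and grew for 8 weeks. The other 6 libraries came from CD-1 IGS mice: 2 controls, 2 taken 24 h and 2 taken 48 h after a single intraperitoneal injection of thioacetamide (TAA), a hepatotoxin. The age label is 8 weeks for every sample, also for those whose tumours grew for 8 weeks after injection. The labels call the TAA samples hepatocytes and the series text calls them livers, and they are called livers here. Nothing says that replicates were separate preparations of separate mice, so p-values measure the spread between these samples.

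Adult hepatocytes rest outside the cell cycle and enter it again after injury or loss of tissue. Genes of DNA replication are switched on first, as E2F factors are released from retinoblastoma family proteins. Genes of mitosis follow in G2, driven by B-MYB bound to the MuvB complex and by FOXM1. In resting cells the DREAM complex, MuvB with p130 or p107 and a repressor E2F, holds both sets down. Mitotic genes are often bound through a short promoter word called the cell cycle genes homology region (CHR), with CCAAT boxes, bound by NF-Y, near it. Their transcripts mark cells on the way into or through division. Hepatocytes can also pass through an incomplete cytokinesis and become polyploid, so a mitotic transcript is no count of new cells.

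Library totals ran from 16228747 to 18522324 counts in the hepatocytes and from 9640845 to 13692235 in the livers. Levels are given as CPM, the count scaled to a common library size after TMM. TMM was run apart on the 6 hepatocyte and the 6 liver libraries, so CPM values are not matched in scale between these kinds. Differences are given as log2 fold changes ± SE from the quasi-likelihood fit of edgeR, with p-values adjusted over all genes tested (Benjamini-Hochberg). A gene is said to have risen or fallen, or to be called, where the adjusted p is under 0.05. Peritumoral replicate 2 stood apart: its Xist level was 405 CPM against at most 0.182 in the other 5 hepatocyte libraries and 235 to 436 in the 6 livers, and its Notch1 level 355 CPM against 77.4 and 79.5 in the other peritumoral libraries. Hepatocyte markers, summed over 12 genes, were high in every group, at 101524 to 135710.0 CPM in untreated hepatocytes, 65947 to 153502 in peritumoral hepatocytes, 250877 to 259729 in control livers, 135866 to 149586 at 24 h and 105154 to 115255 at 48 h.

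The members' promoters are shown first, to let the words that recur in them be read beside the values. RefSeq windows from 250 bases before to 50 bases from the annotated start site (GRCm38.p6) were matched for 36 of the 45 genes, with 38 windows, and the letters of 3 motifs were searched on both strands, each without regard to overlap with the others. A CHR word (TTTGAA or TTCGAA) was found in 30 of the 38 windows (78.9%), against 19.2% of all 32851 windows. Within 50 bases of the start site it was found in 27 (71.1%) against 5.3%. A CCAAT word was found in 29 (76.3%) against 37.4%, and both words together in 26 (68.4%) against 7.5%. An E2F word (TTTGGCGC, TTTCGCGC or TTCCCGCC) was found in 2 (5.3%), those of Cdk1 and Ncapd2, against 3.0%. For 34 genes of DNA replication and S phase, with 40 windows, the shares were 22.5% for CHR, 52.5% for CCAAT and 42.5% for E2F words. These are matches of letters, not sites of binding. Aurkb, Ccna2, Cdc25c, Foxm1, Incenp, Kif20a, Smc4, Spc24 and Tpx2 were not matched.

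A few members, all with a CHR word close to the start, are printed, 5′ to 3′ on the gene's strand, from 170 bases before the start to 30 from it. Prc1 had 2 windows, and the upstream one is shown. Capitals mark CHR, CCAAT and E2F words, read on either strand (ATTGG is CCAAT and TTCAAA is TTTGAA on the other strand). The genes encode Prc1, a bundler of the central spindle, Cdk1, the kinase of mitotic entry, Cenpa, the histone H3 variant of centromeres, Cdc20, an activator of the anaphase-promoting complex, and Kif11, the motor that separates spindle poles. Positions on GRCm38.p6 are chr7:80294281-80294480, plus strand, for Prc1, chr10:69352883-69353082, minus strand, for Cdk1, chr5:30666716-30666915, plus strand, for Cenpa, chr4:118437314-118437513, minus strand, for Cdc20 and chr19:37376212-37376411, plus strand, for Kif11.
Prc1: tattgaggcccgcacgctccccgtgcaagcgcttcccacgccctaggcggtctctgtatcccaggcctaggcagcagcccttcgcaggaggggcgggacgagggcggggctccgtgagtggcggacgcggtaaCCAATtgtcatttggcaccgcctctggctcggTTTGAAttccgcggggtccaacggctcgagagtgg
Cdk1: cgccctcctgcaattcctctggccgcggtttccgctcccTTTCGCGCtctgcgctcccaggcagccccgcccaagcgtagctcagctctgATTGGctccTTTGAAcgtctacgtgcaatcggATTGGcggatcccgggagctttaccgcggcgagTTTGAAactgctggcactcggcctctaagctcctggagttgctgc
Cenpa: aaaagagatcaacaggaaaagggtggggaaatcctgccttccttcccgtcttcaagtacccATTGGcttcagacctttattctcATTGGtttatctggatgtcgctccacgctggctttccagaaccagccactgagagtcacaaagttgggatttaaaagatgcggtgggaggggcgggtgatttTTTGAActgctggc
Cdc20: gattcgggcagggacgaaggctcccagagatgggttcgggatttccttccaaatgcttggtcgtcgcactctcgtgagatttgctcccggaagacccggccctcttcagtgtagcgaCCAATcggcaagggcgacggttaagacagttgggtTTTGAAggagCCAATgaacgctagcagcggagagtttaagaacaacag
Kif11: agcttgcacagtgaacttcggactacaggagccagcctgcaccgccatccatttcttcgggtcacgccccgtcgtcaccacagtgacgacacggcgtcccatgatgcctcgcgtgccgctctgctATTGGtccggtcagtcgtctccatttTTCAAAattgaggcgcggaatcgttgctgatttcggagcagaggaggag
In all 5 the CHR word stood downstream of at least 1 CCAAT word on the gene's strand. Counting the start base as 1, with no base 0, its first base lay at -5 in Prc1, -15 in Cdk1, 17 in Cenpa, -18 in Cdc20 and -19 in Kif11. Cdk1 held a second CHR word at -71 and the E2F word TTTCGCGC at -131. Over all 38 windows the CHR words gathered at the start site: 13 windows (34.2%) held one in the 25 bases from the start base on, against 1.43% of all windows.

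**Figure D1:**
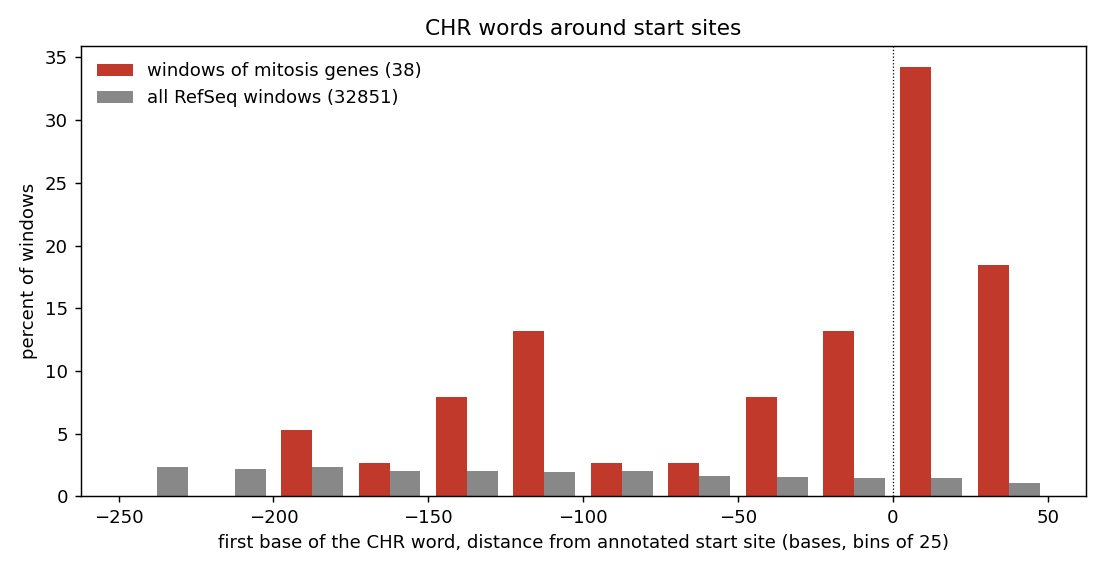
Share of promoter windows, in percent, that hold the first base of a CHR word in each 25-base bin of distance from the annotated start site (x axis, bases), for the 38 windows of mitosis genes (red) and all 32851 RefSeq windows (grey). The red bars are highest just after the start site, at 34.2% and 18.4%, where the grey bars are at 1.43% and 1.06%.

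At 48 h after TAA every one of the 45 genes had risen against control livers, where 25.1% of all 13497 genes tested were called higher and 24% lower. The median log2 fold change was 5.52, against -0.03 over all genes. In all 45 the 2 libraries at 48 h lay above both controls, as in 37.5% of all genes. Their summed level was 76.9 and 56.9 CPM in the controls, 191 and 137 CPM at 24 h and 1841 and 1007 CPM at 48 h. At 24 h 25 of the 45 had risen, none had fallen and 20 did not pass, where 21.1% of all genes were called higher and 20.7% lower. The median was 2.0 against 0.02 over all genes. Groups did not overlap in 37 members with the higher values at 24 h, against 38.3% of all genes, and in Spc24 with the lower values. Between 24 h and 48 h all 45 rose further, with a median of 3.61 against 0.01 over all genes, where 5.02% of all genes were called higher and 2.53% lower. All 45 lay higher in both 48 h libraries than in both 24 h libraries, as did 32% of all genes. The 3 comparisons share libraries, so their values are given side by side and are not independent of each other.

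**Figure D2:**
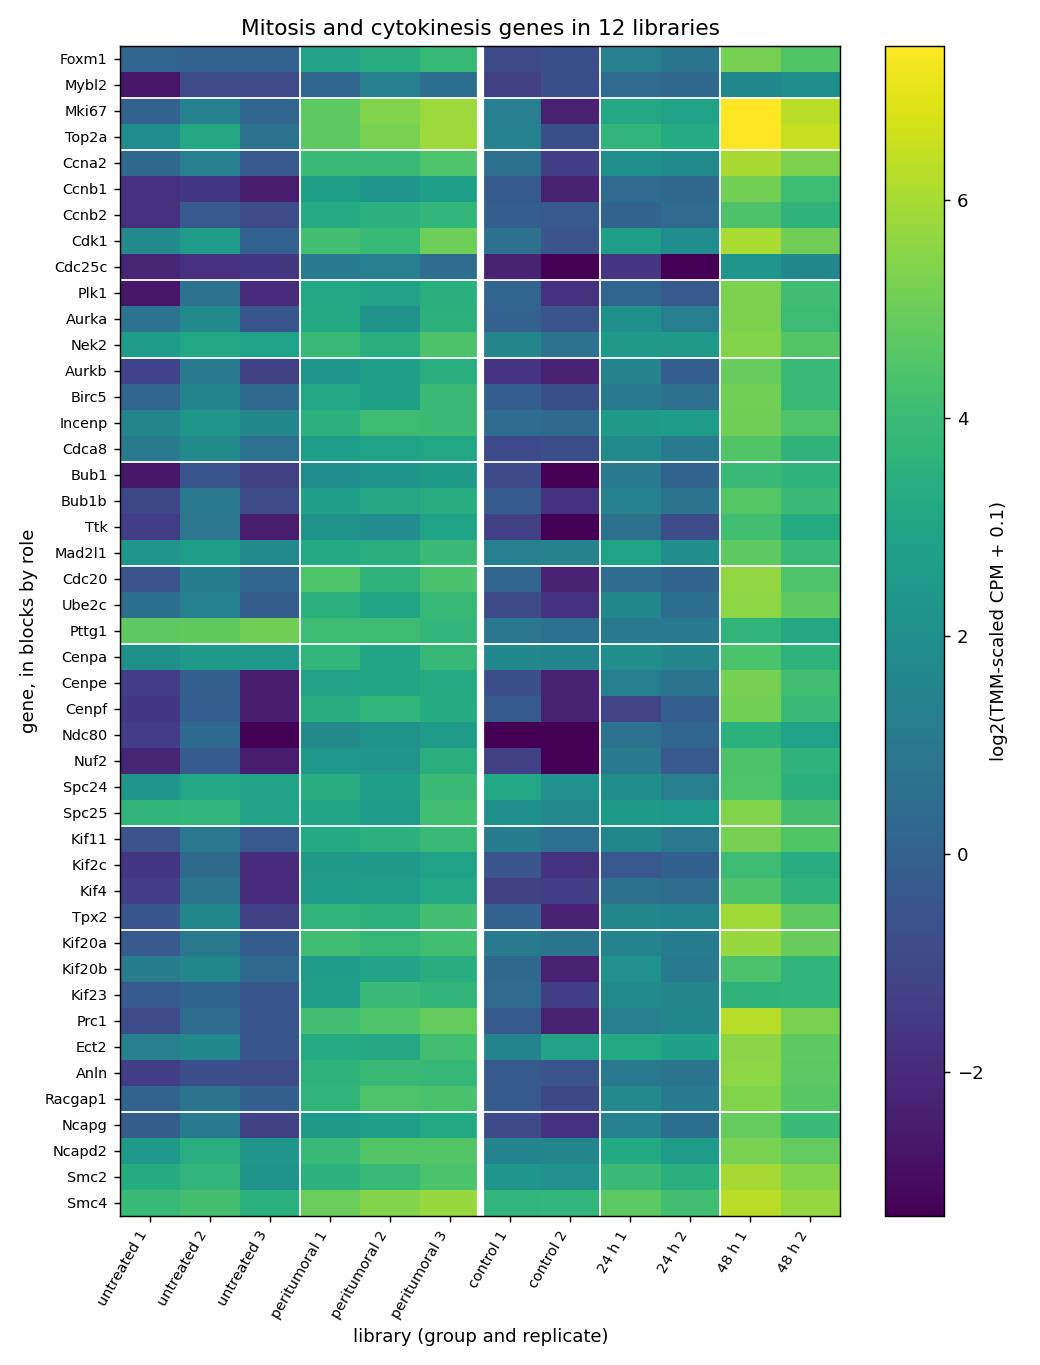
Level of each of the 45 genes (rows, in blocks by role) in each of the 12 libraries (columns), as log2 of TMM-scaled CPM with 0.1 added (colour scale). The 3 peritumoral columns are brighter than the 3 untreated ones in every row except those of Pttg1, Spc24, Spc25 and Smc2, and the 2 columns at 48 h are the brightest of the livers in every row.

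Both transcription factors had risen at both times. Foxm1, which drives late cell cycle genes, stood at 0.413 and 0.501 CPM in control livers, 2.42 and 1.72 at 24 h and 37.1 and 22.6 at 48 h. The 3 groups did not overlap. Its log2 fold change was 2.15 ± 0.51 (adjusted p = 0.0156) at 24 h and 5.99 ± 0.41 (adjusted p = 0.000217) at 48 h. Mybl2, which encodes B-MYB, stood at 0.309 and 0.501 CPM in the controls, 1.25 and 1.1 at 24 h and 3.13 and 3.94 at 48 h. Its rise was smaller than that of Foxm1, at 1.51 ± 0.48 (adjusted p = 0.0413) and 3.09 ± 0.44 (adjusted p = 0.00163). Both proliferation-linked chromosome proteins had also risen at both times. Mki67, which coats mitotic chromosomes and is the usual marker of cycling cells, stood at 2.37 and 0.10 CPM, 8.82 and 7.22 CPM and 170.3 and 77.8 CPM in the same order of groups. Top2a, the topoisomerase that untangles sister DNA, stood at 2.58 and 0.501 CPM, 13.2 and 9.7 CPM and 167 and 88.9 CPM. No group overlapped another in either gene. Mki67 rose by 2.7 ± 0.79 (adjusted p = 0.0324) at 24 h and 6.65 ± 0.75 (adjusted p = 0.00073) at 48 h, and Top2a by 2.89 ± 0.59 (adjusted p = 0.00937) and 6.37 ± 0.58 (adjusted p = 0.0004).

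Of the mitotic cyclins, Cdk1 and its activating phosphatase Cdc25c, all 5 had risen at 48 h and 2 of 5, Ccna2 and Cdk1, at 24 h. Ccnb1, the cyclin B that activates Cdk1, stood at 0.722 and 0.10 CPM in control livers, 1.25 and 1.1 at 24 h and 35.8 and 16.7 at 48 h. Both 24 h values lay above both controls, but the difference of 1.5 ± 0.85 did not pass (adjusted p = 0.192). At 48 h it had risen by 5.97 ± 0.64 (adjusted p = 0.000624). Cdk1 itself stood at 1.44 and 0.601 CPM, 6.17 and 3.58 CPM and 65.6 and 33.4 CPM in the same groups. It had risen by 2.24 ± 0.60 (adjusted p = 0.0243) at 24 h and 5.59 ± 0.54 (adjusted p = 0.000445) at 48 h. Cdc25c had 1 count over both controls, 3 counts at 24 h and 102 at 48 h, a ratio of 74.0 between 48 h and control with an exact 95% interval of 13.0 to 2951 for counting error only. Ccnb2, the other cyclin B, differed by 0.52 ± 0.49 at 24 h, which did not pass, and rose by 4.46 ± 0.40 at 48 h.

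All 3 centrosome and spindle kinases had risen at 48 h, and Aurka and Nek2 at 24 h. Plk1, the kinase of spindle poles, kinetochores and mitotic entry, stood at 1.03 and 0.20 CPM in control livers, 1.03 and 0.688 at 24 h and 39.7 and 17.3 at 48 h. The 24 h values overlapped the controls, at 0.48 ± 0.89 (adjusted p = 0.694), while at 48 h Plk1 had risen by 5.52 ± 0.65 (adjusted p = 0.000852). The chromosomal passenger complex corrects faulty attachments of chromosomes and later marks the cleavage site. Of its 4 genes 3 had risen at 24 h, Birc5 being the exception at 1.33 ± 0.66 (adjusted p = 0.145), and all 4 at 48 h. Its kinase gene Aurkb stood at 0.206 and 0.10 CPM, 3 counts in all, in the controls, 2.72 and 0.825 at 24 h and 29.8 and 14.9 at 48 h. The ratio to the pooled controls was 11.4 (exact 95% interval 3.68 to 57.3) at 24 h and 141 (48.1 to 687) at 48 h, for counting error only.

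Spindle checkpoint genes delay anaphase until every chromosome is attached, and all 4 had risen at 48 h and 2 at 24 h, Bub1 and Bub1b. Bub1b, which encodes the checkpoint protein BUBR1, stood at 0.722 and 0.20 CPM in control livers, 2.57 and 1.65 at 24 h and 24.2 and 15.7 at 48 h. Its rise was 2.18 ± 0.59 (adjusted p = 0.0251) and 5.41 ± 0.50 (adjusted p = 0.000424). Mad2l1, the checkpoint protein that holds back Cdc20, reached 5.6 ± 2.67 CPM (SD, n = 2) at 24 h, at 1.13 ± 0.46 (adjusted p = 0.0862), and rose by 3.04 ± 0.44 at 48 h. Of the 3 anaphase genes, Ube2c, the ubiquitin-conjugating enzyme of the anaphase-promoting complex, had risen at 24 h and all 3 at 48 h. Cdc20 stood at 1.03 and 0.10 CPM, 1.32 and 0.963 CPM and 51.4 and 21.8 CPM, its 24 h values overlapping the controls at 1.01 ± 0.96 (adjusted p = 0.428), and rose by 6.0 ± 0.70 (adjusted p = 0.000838) at 48 h. Pttg1, which encodes securin, the inhibitor of separase, stood at 1.75 and 1.4 CPM, 2.06 and 2.06 CPM and 12.9 and 8.81 CPM. It did not pass at 24 h, at 0.38 ± 0.35 (adjusted p = 0.401), and rose by 2.77 ± 0.32 (adjusted p = 0.000769) at 48 h.

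Of the 7 centromere and kinetochore genes 2 had risen at 24 h, Cenpe and Ndc80, and all 7 at 48 h. Ndc80, the microtubule-binding subunit of the outer kinetochore, had 0 counts in both controls, which over the pair of libraries allows up to 3 counts, for counting error only. It reached 1.54 and 1.03 CPM at 24 h and 11.5 and 7.27 CPM at 48 h. Against that floor it was at least 8.39-fold higher at 24 h and at least 60.2-fold higher at 48 h. Cenpf, an outer kinetochore protein that builds up in G2, stood at 0.722 and 0.10 CPM, 0.367 and 0.825 CPM and 35.4 and 15.1 CPM, so that 24 h overlapped the controls. The rise of Cenpf between 24 h and 48 h, 5.36 ± 0.65 (adjusted p = 0.0115), was the highest log2 fold change of the 45 in that comparison. Spc24, another subunit of the Ndc80 complex, stood at 8.56 and 4.21 CPM, 3.82 and 2.34 CPM and 21.6 and 11.1 CPM. Both its 24 h values lay below both controls, at -1.05 ± 0.49 (adjusted p = 0.125), and its rise at 48 h was the smallest of the 45, at 1.35 ± 0.45 (adjusted p = 0.043). Cenpa stood at 3.09 and 2.81 CPM, 3.75 and 2.89 CPM and 20.5 and 12.1 CPM, overlapping the controls at 24 h and risen by 2.46 ± 0.33 (adjusted p = 0.00133) at 48 h.

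Of the 4 genes of spindle motors and assembly, Kif4 and Tpx2 had risen at 24 h and all 4 at 48 h. Kif11 stood at 2.27 and 1.4 CPM in control livers, 2.94 and 1.86 at 24 h and 36.4 and 22.5 at 48 h. Its 24 h values overlapped the controls, at 0.38 ± 0.43 (adjusted p = 0.507), and it had risen by 4.0 ± 0.38 (adjusted p = 0.000435) at 48 h. Of the 7 genes of the central spindle and cytokinesis 4 had risen at 24 h, Kif20b, Kif23, Prc1 and Racgap1, and all 7 at 48 h. Prc1 stood at 0.722 and 0.10 CPM, 2.28 and 2.96 CPM and 77.5 and 37.7 CPM, a rise of 2.66 ± 0.79 (adjusted p = 0.0344) and then 7.11 ± 0.61 (adjusted p = 0.000349). Anln, the anillin of the cleavage furrow, stood at 0.722 and 0.601 CPM, 1.91 and 1.65 CPM and 48.2 and 25.9 CPM. The groups of Anln did not overlap, but it passed only at 48 h, at 1.41 ± 0.54 (adjusted p = 0.075) and then 5.78 ± 0.43 (adjusted p = 0.000239). Of the 4 condensin genes, which compact chromosomes, 3 had risen at 24 h and all 4 at 48 h. Smc4 was the exception at 24 h, at 13.2 and 13.8 CPM in the controls, 25.9 and 17.8 at 24 h and 78.2 and 52.9 at 48 h, or 0.69 ± 0.25 (adjusted p = 0.0641) and 2.27 ± 0.25 (adjusted p = 0.000691).

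The members differed in how far they had come at 24 h. The mean CPM at 24 h was 8.14% of that at 48 h in the median member. It was lowest for Cenpf (2.36%), Cdc25c (2.86%), Plk1 (3.01%) and Cdc20 (3.12%), genes of late G2 and mitosis. It was highest for Smc4 (33.4%), Mybl2 (33.2%), Mad2l1 (26.7%) and Smc2 (25.3%). For 42 genes of DNA replication and S phase the median was 59.3%, from 19.2% for Rrm2, a subunit of ribonucleotide reductase, to 117% for Rfc3, a clamp loader subunit. Of these 42, 34 had risen and 3 had fallen at 24 h (median log2 fold change 1.69). At 48 h 39 had risen and 1 had fallen (2.83), and 9 rose between the times (0.75). The shares called higher were 81.0%, 92.9% and 21.4%, against 21.1%, 25.1% and 5.02% of all genes. Called lower were 20.7%, 24% and 2.53% of all genes. Mcm6 and Mcm2, subunits of the replicative helicase, went from 5.4 ± 1.55 to 50.5 ± 19.0 CPM and from 1.99 ± 0.543 to 33.5 ± 17.5 CPM (mean ± SD, n = 2) at 24 h. Their log2 fold changes were 3.22 ± 0.32 (adjusted p = 0.000786) and 4.07 ± 0.44 (adjusted p = 0.000981). The difference between the lists was not tested.

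**Figure D3:**
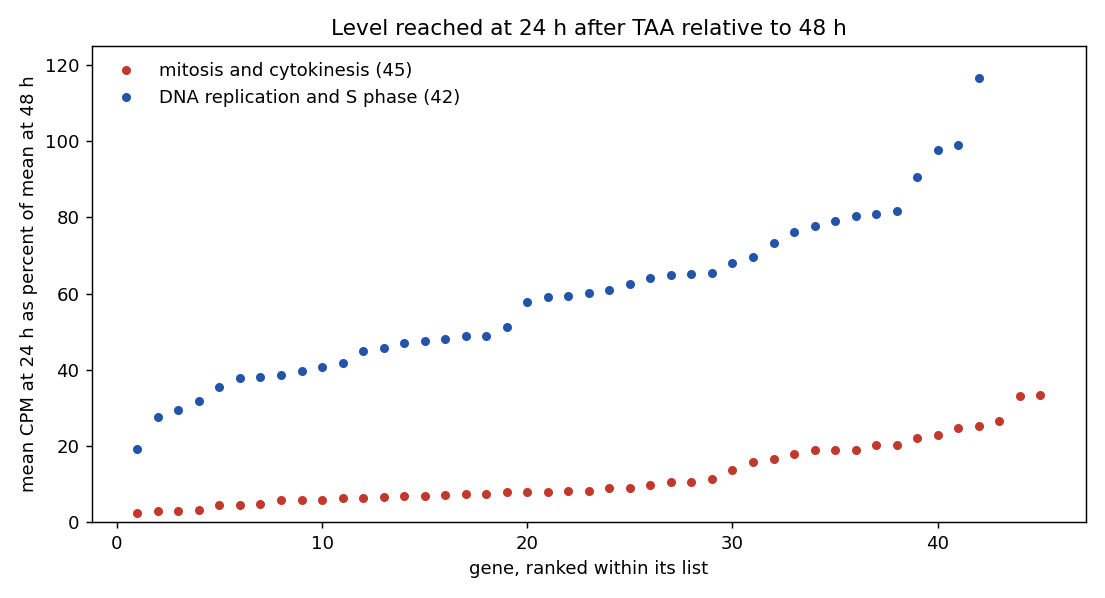
Mean CPM at 24 h as a percent of mean CPM at 48 h after TAA (y axis) for each gene, ranked within its list (x axis), for 45 mitosis genes (red) and 42 genes of DNA replication and S phase (blue). The red points run from 2.36% to 33.4% and the blue points from 19.2% to 117%.

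Of 95 other genes of mitosis in 8 sublists, 33 had risen and 2 had fallen at 24 h (median 0.81). At 48 h 73 had risen and 2 had fallen (3.03), and 48 rose between the times (1.59). The shares called higher were 34.7%, 76.8% and 50.5%, against 21.1%, 25.1% and 5.02% of all genes. Called lower were 20.7%, 24% and 2.53% of all genes. At 48 h all 6 other mitotic kinesins had risen, among them Kif15, and 16 of 17 genes of spindle assembly and the midbody, among them Cep55, at 6.52 ± 0.55 (adjusted p = 0.000325). Hmmr, a spindle protein, went from 1.03 ± 0.00227 to 33.9 ± 13.8 CPM between 24 h and 48 h. The 15 genes of the anaphase-promoting complex and separase had a median of 0.33 at 48 h, with 5 higher (33.3%, where 25.1% of all genes were called higher) and 1 lower. Among those 15, the separase gene Espl1 rose by 5.63 ± 0.46 (adjusted p = 0.000308). The 12 genes of DREAM and MuvB had a median of 0.47, with 5 higher (41.7%) and 1 lower. That 1 was Rbl2, which encodes p130, the retinoblastoma family protein of DREAM. Rbl2 fell from 53.0 ± 4.68 to 12.9 ± 1.11 CPM at 24 h, a log2 fold change of -2.04 ± 0.15 (adjusted p = 0.000419), and stood at 23.4 ± 2.82 CPM at 48 h.

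Markers of several other cell types were also higher in the livers after TAA, though not all with the course of the mitosis genes. Of 10 macrophage markers 6 had risen at 24 h and all 10 at 48 h, their sum going from 84.5 to 187 CPM in control livers to 366 to 477 at 24 h and 797 to 1222 at 48 h. Of 10 markers of stellate cells and fibroblasts 9 and 10 had risen, from 113 to 179.6 to 438 to 469.8 and 1244 to 1829 CPM. Endothelial markers had risen in 7 and 8 of 10, from 201 to 248 CPM to 391 to 505 and 412 to 529 CPM. All 9 neutrophil markers, S100a8 and S100a9 among them, were at 0 in both controls, and their sum was 3.92 to 6.24 CPM at 24 h and 3.07 to 4.62 CPM at 48 h. Of 7 biliary markers tested 4 had risen at 24 h, and 2 had risen and 1 had fallen at 48 h. Of 4 erythroid markers 1 had risen at 24 h and none was called at 48 h. For comparison, 21.1% of all genes tested were called higher and 20.7% lower at 24 h, and 25.1% and 24% at 48 h. The biliary markers at 48 h (28.6% higher) and the erythroid markers at 24 h thus stayed near the share of all genes called higher. Between 24 h and 48 h, 5 of 10 macrophage and 5 of 10 stellate cell and fibroblast markers rose, against 5.02% of all genes. None of 10 endothelial markers was called in that comparison (median log2 fold change 0.08), and the 2 neutrophil markers tested were not called (median -1.11). Of 12 hepatocyte markers 8 had fallen at each time. The part of these cells in the rise of the mitosis genes was not tested. In bulk libraries such as these, more dividing cells and more mitotic transcript per cell cannot be told apart.

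With 2 libraries per group, single libraries weighed on the calls. Left out in turn, with the lone sample assumed to vary like the other groups, no library ended the 48 h call of 44 members. That of Spc24 was lost without control replicate 2, 48 h replicate 1 or either 24 h library (adjusted p up to 0.247). At 24 h the 25 calls became 3 without 24 h replicate 1, 10 without control replicate 1 and 6 without control replicate 2. Only Incenp, Ndc80 and Smc2 were called at 24 h in every such fit. The 45 calls between 24 h and 48 h became 0 without either 24 h library, 10 without 48 h replicate 1 and 38 without 48 h replicate 2. All 45 log2 fold changes of that comparison stayed above 0 in these fits, at 1.27 or more, and each gene's highest adjusted p lay between 0.0691 and 0.234. In 43 of 45 genes 48 h replicate 1 was the higher of its pair, in 39 of 45 24 h replicate 1, and in 38 of 45 control replicate 1.

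The libraries of peritumoral hepatocytes, in which markers of other cell types were also higher (below), held more of nearly all of these transcripts than those of untreated hepatocytes. Of the 45 genes 39 were higher, each by at least 2-fold, where 18.7% of all 13442 genes tested were called higher and 9.85% lower. Pttg1 was lower, and Mybl2, Ttk, Spc24, Spc25 and Smc2 did not pass. The median log2 fold change was 3.15, against -0.02 over all genes. In 41 members all 3 peritumoral libraries lay above all 3 untreated ones, as in 25% of all genes. The summed level was 122, 188 and 108 CPM in the untreated and 488, 541 and 749.5 CPM in the peritumoral libraries.

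**Figure D4:**
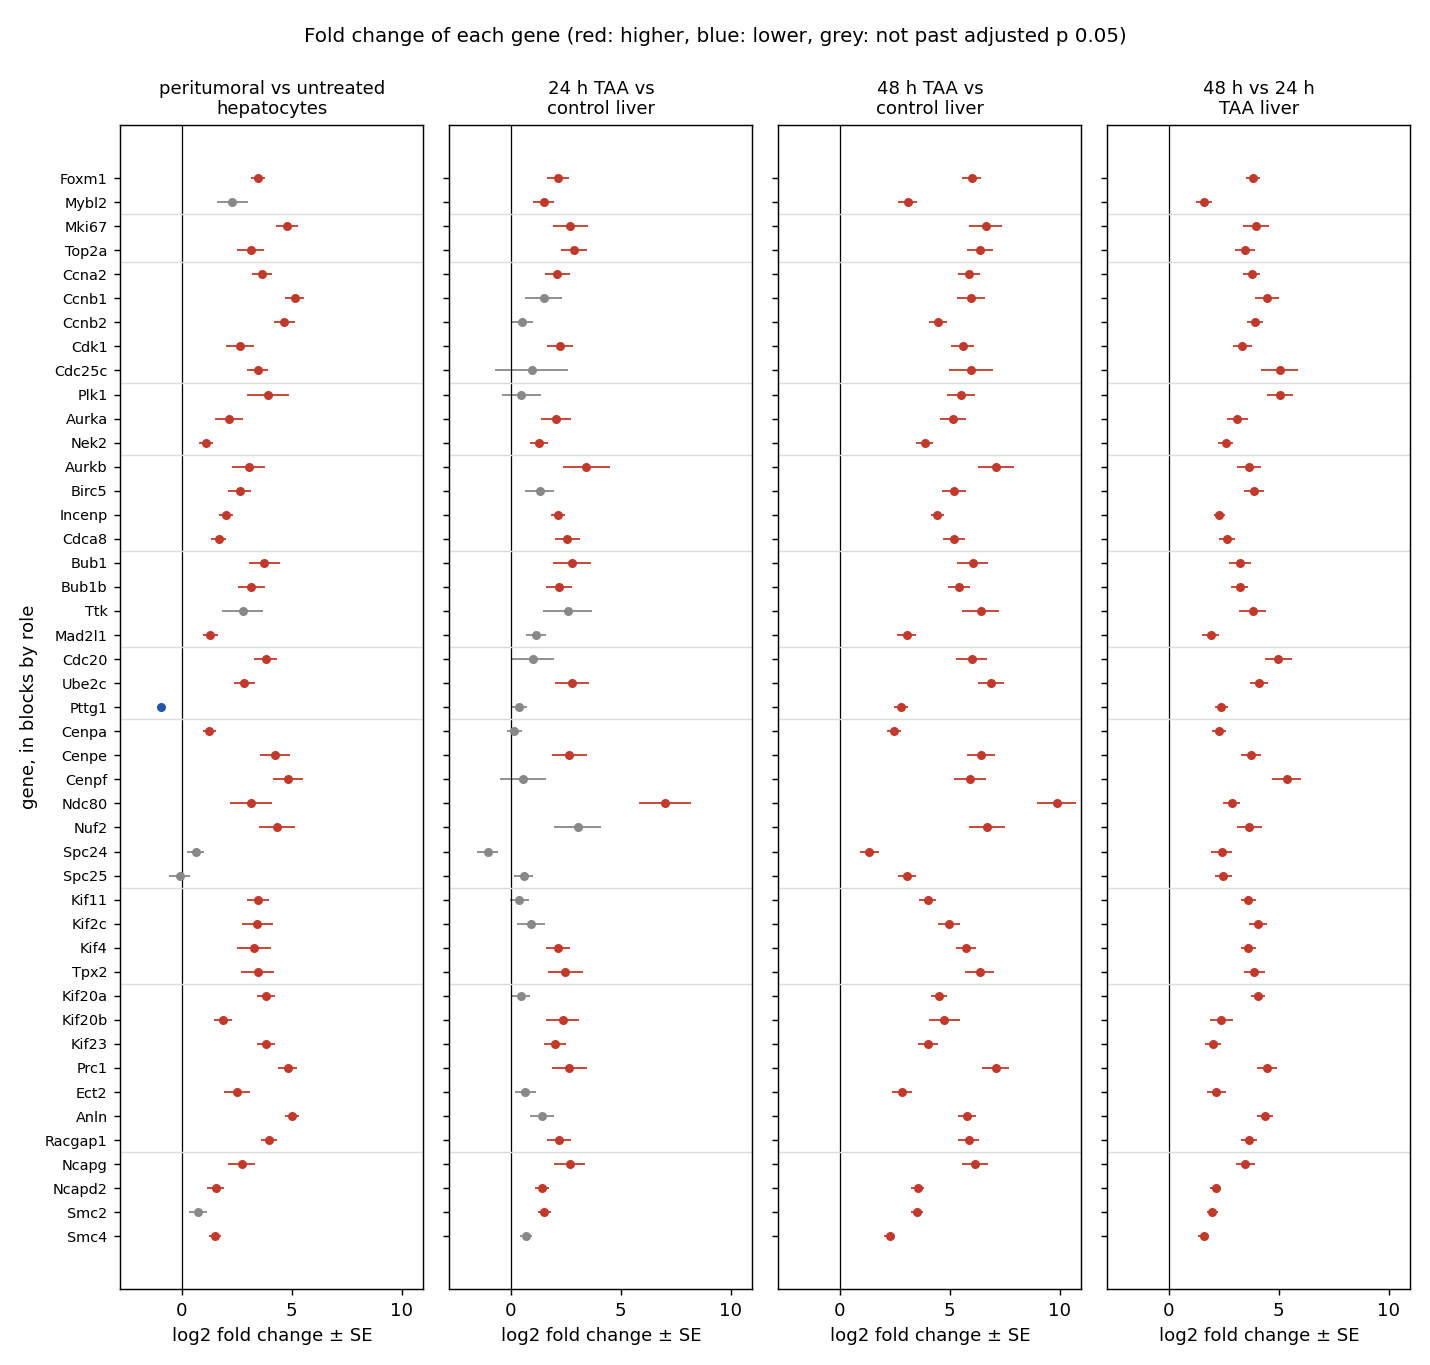
Log2 fold change ± SE (x axis) of each of the 45 genes (y axis, in blocks by role) in the 4 comparisons, with genes called higher in red, called lower in blue and not past the threshold in grey. Pttg1 is the single blue point, all points are red at 48 h, and the fitted values of Ndc80 against control livers, where it was at 0, depend on the prior count.

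Of the transcription factors Foxm1 was higher, at 1.04, 0.93 and 0.944 CPM in untreated and 7.69, 10.3 and 14.4 CPM in peritumoral hepatocytes. Its log2 fold change was 3.46 ± 0.33 (adjusted p = 0.00345). Mybl2 stood at 0.0578, 0.465 and 0.472 CPM and 1.03, 2.45 and 1.39 CPM, with no overlap, and narrowly missed the threshold at 2.3 ± 0.72 (adjusted p = 0.0524). Both chromosome proteins were higher. Mki67 stood at 0.924, 2.5 and 1.02 CPM and 26.6, 41.6 and 55.7 CPM, a difference of 4.78 ± 0.49 (adjusted p = 0.0039). Top2a stood at 3.58, 8.72 and 1.57 CPM and 26.9, 38.6 and 58.0 CPM, a difference of 3.14 ± 0.62 (adjusted p = 0.014). In both genes the lowest peritumoral library lay above the highest untreated one. The call of Top2a was lost without untreated replicate 1 (adjusted p = 0.0689).

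All 5 genes of the mitotic cyclins, Cdk1 and Cdc25c were higher. Ccnb1 showed the highest fold change of the 45, from 0.173, 0.233 and 0.0787 CPM to 6.85, 4.89 and 6.59 CPM. That is 5.14 ± 0.44 (adjusted p = 0.0032), and the groups were far apart. Cdk1 stood at 3.41, 6.05 and 0.944 CPM and 18.1, 14.6 and 32.5 CPM, a difference of 2.63 ± 0.64 (adjusted p = 0.0256). All 3 spindle kinases were higher, Plk1 going from 0.0578, 1.51 and 0.157 CPM to 8.54, 7.18 and 11.2 CPM, or 3.91 ± 0.95 (adjusted p = 0.0256). Aurka and Nek2 passed more narrowly, at 2.15 ± 0.64 (adjusted p = 0.046) and 1.1 ± 0.30 (adjusted p = 0.0378). Leaving out 1 library ended the calls of Cdk1, Plk1, Aurka and Nek2 in 2, 3, 5 and 5 of 6 cases, untreated replicate 1 and peritumoral replicate 3 among them for each gene, with adjusted p up to 0.104, 0.0682, 0.166 and 0.150.

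All 4 genes of the chromosomal passenger complex were higher. Aurkb stood at 0.347, 1.98 and 0.315 CPM in untreated and 4.91, 6.89 and 10.6 CPM in peritumoral hepatocytes, or 3.05 ± 0.76 (adjusted p = 0.0272). Of the checkpoint genes Bub1, Bub1b and Mad2l1 were higher. Bub1b stood at 0.404, 1.92 and 0.472 CPM and 6.54, 8.75 and 10.3 CPM, or 3.17 ± 0.63 (adjusted p = 0.0146). Ttk, the MPS1 kinase that starts the checkpoint signal, was higher in each peritumoral library than in any untreated one but did not pass, at 2.76 ± 0.92 (adjusted p = 0.0638). The call of Aurkb was lost without peritumoral replicate 3, untreated replicate 1 or untreated replicate 3 (adjusted p up to 0.0992), and that of Bub1b without untreated replicate 1 (adjusted p = 0.0583).

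The anaphase genes went in both directions. Cdc20 stood at 0.578, 2.21 and 1.02 CPM in untreated and 21.6, 12.4 and 20.1 CPM in peritumoral hepatocytes, or 3.81 ± 0.52 (adjusted p = 0.00576), and Ube2c was higher by 2.84 ± 0.47. Pttg1 stood at 26.6, 27.9 and 33.7 CPM in untreated hepatocytes, where its level per exon length was the highest of the 45, and at 16.1, 16.5 and 13.8 CPM in the peritumoral group. The 3 peritumoral values lay below the 3 untreated ones, a log2 fold change of -0.93 ± 0.17 (adjusted p = 0.0111). The call of Pttg1 was kept with each library left out (adjusted p up to 0.0480). It was lost without scaling factors, at -0.66 (adjusted p = 0.110), and in limma on log2 of the authors' RPM with 0.5 added, at -0.67 (adjusted p = 0.0966).

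Of the kinetochore genes 5 of 7 were higher. Ndc80 stood at 0.289, 1.16 and 0 CPM in untreated and 3.21, 4.31 and 6.01 CPM in peritumoral hepatocytes, or 3.15 ± 0.95 (adjusted p = 0.0477). Cenpa stood at 4.1, 5.41 and 5.27 CPM and 13.3, 7.84 and 14.1 CPM, or 1.25 ± 0.30 (adjusted p = 0.0238). Both calls were lost in 5 of 6 fits with 1 library left out, all but that without untreated replicate 2 for Ndc80 and all but that without peritumoral replicate 2 for Cenpa, with adjusted p up to 0.178 and 0.106. Cenpf stood at 0.231, 0.814 and 0.0787 CPM and 10.1, 13.8 and 9.88 CPM, or 4.83 ± 0.67 (adjusted p = 0.0058), and kept its call in each such fit. Spc24 and Spc25, a dimer of the Ndc80 complex, overlapped between the groups, at 0.63 ± 0.37 (adjusted p = 0.246) and -0.10 ± 0.47 (adjusted p = 0.894). Spc24 stood at 5.08, 8.31 and 7.63 CPM and 10.3, 6.6 and 15.7 CPM. Without scaling factors Spc25 stood at 0.034, on the other side of 0.

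All 4 spindle motor and assembly genes and all 7 genes of the central spindle and cytokinesis were higher. Kif11 stood at 0.578, 1.86 and 0.708 CPM in untreated and 9.27, 11.4 and 14.97 CPM in peritumoral hepatocytes, or 3.48 ± 0.50 (adjusted p = 0.00646). Prc1 stood at 0.462, 1.28 and 0.629 CPM and 17.6, 21.6 and 28.9 CPM, or 4.82 ± 0.44 (adjusted p = 0.0032). Anln stood at 0.289, 0.523 and 0.472 CPM and 12.1, 15.3 and 14.1 CPM, or 5.0 ± 0.32 (adjusted p = 0.0032). In these 3 genes the groups did not overlap and each call was kept with any 1 library left out, as were those of Kif20a, Kif23 and Racgap1. Racgap1, which with Kif23 forms the centralspindlin complex, was higher by 3.96 ± 0.36. Of the 4 condensin genes 3 were higher. Smc4 stood at 15.1, 19.1 and 11.4 CPM and 31.7, 42.2 and 54.4 CPM, or 1.49 ± 0.27 (adjusted p = 0.0115), a call lost without untreated replicate 1 (adjusted p = 0.0607). Ncapg and Ncapd2 were higher by 2.73 ± 0.62 and 1.54 ± 0.38, and Smc2 did not pass, at 0.76 ± 0.41 (adjusted p = 0.209).

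Of the 42 genes of DNA replication and S phase 2 were higher in peritumoral hepatocytes (4.76%, where 18.7% of all genes were called higher) and none was lower, with a median of 0.12. Their sum was 488, 722 and 384 CPM in untreated and 450.3, 540.3 and 589.9 CPM in peritumoral hepatocytes, and the groups overlapped. The 2 were Dbf4, the activator of the replication kinase CDC7, at 1.16 ± 0.28 (adjusted p = 0.0241), and Pola1, the catalytic subunit of DNA polymerase alpha, at 1.01 ± 0.27 (adjusted p = 0.0339). Ccne1, which encodes cyclin E1, differed by -2.2 ± 0.72 (adjusted p = 0.0613). The difference between the lists was not tested. Of the 95 other mitosis genes 36 were higher and 2 lower (median 1.22), with 15 of 17 spindle assembly and midbody genes and 5 of 6 other kinesins among the higher ones. Nusap1, a microtubule bundler, went from 0.319 ± 0.219 to 8.86 ± 1.84 CPM (mean ± SD, n = 3), or 4.82 ± 0.53 (adjusted p = 0.00414). The anaphase-promoting complex list and the DREAM and MuvB list had medians of 0.08 and -0.04.

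**Figure D5:**
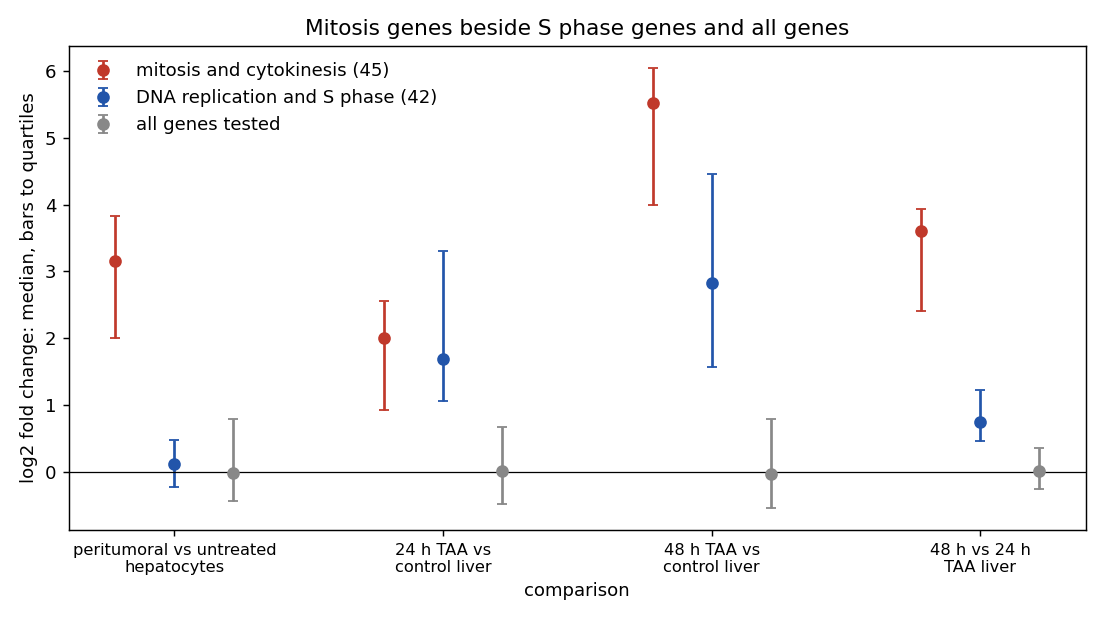
Median log2 fold change (points, y axis) with lower and upper quartiles (bars) of 45 mitosis genes (red), 42 genes of DNA replication and S phase (blue) and all genes tested (grey) in the 4 comparisons (x axis). In peritumoral hepatocytes the red median is at 3.15 and the blue at 0.12, while at 24 h after TAA they are at 2.0 and 1.69.

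Markers of several other cell types were higher in the peritumoral libraries as well. Of the markers tested, 9 of 10 endothelial, 9 of 10 macrophage, 8 of 10 stellate cell and fibroblast, 8 of 8 neutrophil and 6 of 8 biliary genes were called higher, and none of 12 hepatocyte markers was called. Over all genes tested 18.7% were called higher and 9.85% lower. Erythroid markers stayed near that share, with 1 of 5 tested called higher (20.0%). All 7 erythroid markers summed to 82.0 to 184 CPM in untreated and 9.83 to 83.4 CPM in peritumoral hepatocytes. Summed macrophage markers were 301 to 423 CPM in untreated hepatocytes and 1540.2, 1972 and 4439 CPM in peritumoral replicates 1, 2 and 3. In the same order endothelial markers went from 245 to 321 CPM to 1078, 899.8 and 1743 CPM. Those of stellate cells and fibroblasts went from 63.3 to 118 CPM to 1356, 1916 and 755 CPM, and neutrophil markers from 1.73 to 3.55 CPM to 18.8, 25.6 and 41.9 CPM. Biliary markers were at 1112, 7945 and 803 CPM in these replicates and at 52.5 to 94.4 CPM in untreated hepatocytes. Replicate 3 was the highest peritumoral library for 34 of the 45 mitosis genes. It was also the highest for the summed macrophage, endothelial, neutrophil and hepatocyte markers. For those of stellate cells and fibroblasts and for biliary markers it was the lowest. The part of these cells in the higher mitosis genes was not tested.

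Without peritumoral replicate 2, the library that stood apart in Xist, Notch1 and biliary markers, 37 of the 45 genes were still called higher. The count fell to 25 without peritumoral replicate 3 and to 17 without untreated replicate 1. Of the 40 calls, 18 were kept with every single library left out, those of Foxm1, Mki67, Ccna2, Ccnb1, Ccnb2, Cdc25c, Incenp, Bub1, Cdc20, Pttg1, Cenpe, Cenpf, Kif11, Kif20a, Kif23, Prc1, Anln and Racgap1. Untreated replicate 2 was the highest of its group for 41 of the 45 genes.

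Side by side, the fold change at 48 h after TAA was larger than that of peritumoral hepatocytes in 44 of the 45 genes, Ccnb2 being the exception at 4.67 ± 0.49 against 4.46 ± 0.40. The median difference in log2 fold change was 2.28. Across the 45 genes the fold changes of these comparisons, which share no library but differ in mouse stock and in the Xist level of most libraries, had a Pearson r of 0.649 and a Spearman rho of 0.616, against 0.504 and 0.409 across all 12847 genes tested in both. Genes are not independent replicates, and the difference between the comparisons was not tested. Genes with low levels in the reference group had the larger fold changes, with r = -0.845 between the base level and the fold change in hepatocytes and r = -0.826 in livers at 48 h (45 genes). The base level enters both measures. In all, 23 genes were higher in peritumoral hepatocytes and at both times after TAA, and 16 in peritumoral hepatocytes and at 48 h but not past the threshold at 24 h. Taken singly, 18.7%, 21.1% and 25.1% of all genes were called higher in peritumoral hepatocytes, at 24 h and at 48 h. The share of all genes with these joint calls is not given here, and both TAA comparisons use the same controls. Counting reads by gene may split those of shared sequence: 25.2% of the 50-base words of Kif20a also lie in Cdc23, which overlaps it on the other strand, and 23.4% of those of Ccnb1 in other genes, the pseudogene Ccnb1-ps among them.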

How the data were processed

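Every main test started from the authors' deposited raw counts of 41128 genes. Their second table holds RPM of 17311 genes, the same counts over the library total, since 100% of its values gave back the deposited count within 0.01. The submitters' processing notes name STAR, DESeq2, mm10 and GRCm38, with neither version nor role, and the sources used here give no annotation or strand setting of the counting. Positions came from GENCODE M21 (97.9% of IDs found), promoter windows from RefSeq on GRCm38.p6.

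Groups and replicate numbers came from sample titles. Counts were tested with edgeR 4.0.16 in R 4.3.3 (TMM scaling, genes kept by filterByExpr at 10 counts and 15 in total, two-sided quasi-likelihood F test, prior count 0.125), the 6 hepatocyte and the 6 liver libraries in separate fits, with 13442 and 13497 genes tested, in 4 comparisons. In each library 3 counts correspond to between 0.124 and 0.309 CPM, for counting error only. Alternatives were RLE and no factors, no filter or a minimum of 50 counts, DESeq2 1.42.0, limma 3.58.1 on log2 RPM with 0.5 or 0.1 added, other sets of libraries in 1 fit, the replicate number as a term, each library left out and, chosen after seeing the data, counts rebuilt from RPM. The pipeline was tested on simulated data. Replicates differed by more than sampling noise, so none was counted as a duplicate.

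All 45 genes may be named. Values per library are given for 16 of them spread over the roles and for the highest and lowest fold change of each comparison, and other lists are shown by counts, medians and their smallest p-values. The members, the lists and these rules were chosen with earlier results of these data known.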

Additional observations from a re-analysis of the deposited data

Results flagged for a closer look

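The effect of TAA differed between 24 h and 48 h in all 45 genes by the direct test of 48 h against 24 h livers. The log2 difference ran from 1.58 ± 0.24 for Smc4 (edgeR adjusted p = 0.0199) to 5.36 ± 0.65 for Cenpf (edgeR adjusted p = 0.0115), and every gene was higher in both 48 h libraries than in both 24 h libraries. The count was 0 without either of the 24 h libraries, with the lone sample assumed to vary like the other groups.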

How the results depend on the processing

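The rise of all 45 genes at 48 h after TAA was called in at least 43 genes under each alternative that was run (43 were tested at a minimum of 50 counts). Of the counts that moved by over 1.5 times, the 39 genes higher in peritumoral hepatocytes ranged from 17 to 37 with 1 library left out, and the 25 risen at 24 h from 3 to 25. The 45 risen between the times ranged from 0 to 45 with 1 library left out and became 21 with all 12 libraries in 1 fit. The cause was not tested, though such fits have fewer samples and, for the last, share 1 spread with the hepatocytes. The 1 gene lower in peritumoral hepatocytes became 0 without scaling factors and with limma at either pseudocount, 0.5 or 0.1. The 0 genes lower at 24 h became 1, Spc24, without the count filter and with the replicate block. With only the 4 control and 24 h livers filtered and fitted, 35 members kept their outcome at 24 h, 2 gained a call and 3 lost theirs. The other members did not pass the filter in that fit, and had entered the main one through their counts at 48 h. Spc25 in peritumoral hepatocytes, -0.10, changed sign without scaling factors (0.034), with limma at pseudocounts of 0.5 (0.029) and 0.1 (0.031), and with 1 library left out in 4 of 6 cases (range -0.71 to 0.22). At 24 h Cdc25c, Plk1, Cenpa and Cenpf changed sign with 1 library left out, ranging from -2.58 to 3.62, -0.28 to 2.03, -0.026 to 0.33 and -0.27 to 2.47, and none of these 4 was called in the fit of all libraries. With the replicate block 33, 30, 45 and 44 genes were higher in the peritumoral, 24 h, 48 h and 48 h against 24 h comparisons. Deviations of same-numbered libraries correlated at -0.223 to 0.165 in hepatocytes and 0.023 to 0.027 in livers. For libraries of different number the range in hepatocytes was -0.244 to 0.238. In livers, with 2 libraries per group, those values differ from the same-numbered ones only in sign. These correlations cannot settle whether the numbers pair samples.

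Without scaling factors the medians of all genes moved to 0.23, 0.53, 0.68 and 0.21 in the 4 comparisons, in the order above, and the members stood 3.07, 1.98, 5.55 and 3.61 above them, against 3.17, 1.98, 5.55 and 3.60 with TMM. The share of calls that were higher moved from 65.5% to 93.3%, 50.5% to 83.4%, 51.1% to 88.7% and 66.5% to 87.5%. Depth limits the members with 3 or fewer counts over the controls, Cdc25c, Aurkb, Ttk, Nuf2 and Ndc80, to wide intervals or a lower bound. Further members had 1 count in control replicate 2, among them Mki67 (23 and 1 counts in the controls) and Prc1 (7 and 1). With 1 library left out, the log2 fold change of Mki67 ran from 1.74 to 6.18 at 24 h and from 5.66 to 10.1 at 48 h. That of Prc1 ran from 1.84 to 4.58 and from 6.25 to 8.99.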

Other observations

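Per length of exon, the 45 genes changed places between groups. Levels are RPKM, the mean TMM-scaled CPM per kilobase of all annotated exons. In untreated hepatocytes the highest were Pttg1 (14.7), Spc25 (3.53) and Smc4 (2.92), and in control livers Smc4 (2.59), Spc24 (2.48) and Spc25 (1.15). In peritumoral hepatocytes the order was led by Cdc20 (9.64), Smc4 (8.21), Pttg1 (7.73) and Ccnb2 (7.56). At 24 h after TAA it was led by Smc4 (4.20) and Smc2 (2.42), genes of condensin, which also stabilises chromosomes outside mitosis. At 48 h it was led by Cdc20 (19.6), Ube2c (14.5), Top2a (14.2), Plk1 (13.0) and Ccna2 (12.7). Mybl2 was the lowest of the 45 in peritumoral hepatocytes (0.350) and at 48 h (0.763).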
